A study of Homo sapiens with 14 samples.

Results

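The HSPD1 and HSPE1 genes lie head to head on human chromosome 2 and share a promoter. Binding of the heat shock factors HSF1 and HSF2 there was read from ChIP-seq peak lists, in which DNA that comes down with an antibody to a factor is sequenced. The cells were K562, an established erythroleukemia line of human origin. Members were all peaks, in any of 12 lists, that overlapped the segment from 198345000 to 198373000 (28 kb, hg19) by at least 1 bp. They numbered 8 of 117699 peaks: each of the 8 HSF libraries had 1, and each of the 4 libraries made with non-specific IgG had 0.

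Cycling (unsynchronised) and mitotically arrested cells were each kept at 37 °C (non-treated) or moved to 42 °C for 30 min (heat-treated). The arresting agent is not given in the sources used here. Each of these 4 conditions has 1 HSF1, 1 HSF2 and 1 IgG library, and each was pooled from 10 immunoprecipitations. The 2 input libraries, 1 per cell state, are labelled as heat-treated and served as background for peak calling, also for the non-treated libraries. With 1 library per group no condition can be tested, so every ratio below compares 2 particular libraries. Its 95% interval, like that of a level, covers counting error only and not the spread between repeat libraries. Tags without molecular identifiers are not independent molecules, so the interval may be too narrow even for counting error.

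HSPD1 encodes the mitochondrial chaperonin HSP60, a ring-shaped chamber in which imported proteins fold. HSPE1 encodes HSP10, the co-chaperonin that caps the chamber, so the shared promoter serves partners that act together. Heat shock factors bind heat shock elements, arrays of the unit GAA alternating in orientation with its reverse complement TTC. HSF1 is the main activator of chaperone genes under heat, and HSF2 is a relative that recognises the same element.

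The promoter sequences are shown because 1 of them holds an extended array of that element. RefSeq gives 2 start windows for HSPD1 and 1 for HSPE1 in build GRCh38.p14, which differs from the build of the peaks, so element and peaks are not placed on a common scale. The 250 bases before the downstream HSPD1 start (chr2:197499841-197500090, minus strand) and before the HSPE1 start (chr2:197500129-197500378, plus strand) are given 5′ to 3′ on each gene's own strand, with capitals where at least 3 alternating units stand in a row.
HSPD1: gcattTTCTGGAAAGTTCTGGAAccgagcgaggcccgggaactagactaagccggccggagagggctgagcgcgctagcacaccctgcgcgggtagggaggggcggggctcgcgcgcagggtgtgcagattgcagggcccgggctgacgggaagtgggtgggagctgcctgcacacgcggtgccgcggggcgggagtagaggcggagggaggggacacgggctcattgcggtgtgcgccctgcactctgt
HSPE1: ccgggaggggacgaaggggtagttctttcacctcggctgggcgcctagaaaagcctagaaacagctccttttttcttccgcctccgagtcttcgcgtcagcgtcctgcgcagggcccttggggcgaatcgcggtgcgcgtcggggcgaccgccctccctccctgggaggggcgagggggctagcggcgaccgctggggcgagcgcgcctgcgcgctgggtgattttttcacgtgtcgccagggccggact
The capitals in the HSPD1 window are 18 bases at chr2:197500068-197500085 and spell 4 perfect units, TTC, GAA, TTC and GAA, each spaced by a pair of bases. The array lies 228 bp upstream of the downstream HSPD1 start, 189 bp downstream of the upstream HSPD1 start and 294 bp from the HSPE1 start, with its nearest base 44 bp from the first printed HSPE1 base. The HSPE1 start and the upstream HSPD1 start are 105 bp apart.

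Arrays of this length were rare among promoters. The 2-unit forms GAANNTTC and TTCNNGAA, each its own reverse complement, were in 13.5% of 34943 RefSeq windows of 300 bases (250 before to 50 after a start). The 3-unit forms, GAANNTTC followed by NNGAA and TTCNNGAA followed by NNTTC, are each other's reverse complement and were in 0.489%. The 4-unit forms, TTCNNGAA or GAANNTTC followed by NN and a second copy of itself, were in 12 windows (0.0343%, Wilson interval 0.0196 to 0.0600). All windows given were counted and some overlap, so that interval is not a spread between samples. The 4-unit search was added after the HSPD1 sequence had been seen, so HSPD1 is among the 12 by construction. Shorter forms overlap within the longer ones, and both strands were covered. Neither the HSPE1 window nor the upstream HSPD1 window held a 2-unit form, which says only that these letters are not there. The 3 windows had 67% to 70.7% G and C against a median of 58.7% over all promoters, and 33 to 35 CpG dinucleotides against a median of 14.
For comparison, HSPA8, the gene of the constitutive cytosolic HSP70 protein, has 2 separate 3-unit arrays, and HSPA1A, an inducible HSP70 gene, has a single 2-unit form, each shown with 6 flanking bases.
HSPA8 distal: gagcttGAAAGTTCCAGAAcgctgc
HSPA8 proximal: ggccccTTCTGGAAGGTTCtaagat
HSPA1A: accctgGAATATTCccgacc
The HSPA8 arrays lie at chr11:123062354-123062366 and chr11:123062179-123062191, and the HSPA1A form at chr6:31815437-31815444 (GRCh38.p14). Of the other loci compared below, the HSPA1B window also held a single 2-unit form and no 3-unit form. The HSPH1 window held no 2-unit or 3-unit form, although HSPH1 had peaks in the heat-treated HSF lists.

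The HSF1 level at the promoter was higher in the heat-treated library of both cell states. The HSF2 level was higher with heat in cycling cells, and in mitotic cells the heated and non-treated HSF2 libraries differed by less than their counting error. Levels are in RPM, the tags in a library's own peak per 1000000 kept tags, which are those left after the peak caller's limit on duplicates. In cycling cells the HSF1 peak held 161 tags with heat (9.62 RPM, Poisson interval 8.19 to 11.2) and 20 without (1.38, 0.846 to 2.14). The HSF2 peak held 140 tags with heat (7.19, 6.05 to 8.48) and 64 without (2.23, 1.72 to 2.85). High values were thus those of the heated cells, and the intervals of heated and non-treated libraries did not overlap for either factor.

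In mitotic cells the HSF1 peak held 70 tags with heat (9.48 RPM, 7.39 to 11.97) and 12 without (1.95, 1.01 to 3.40). The HSF2 peak held 56 tags with heat (1.98, 1.49 to 2.57) and 28 without (1.89, 1.26 to 2.74). Among the 8 libraries, 3 stood high (HSF1 with heat in both cell states and HSF2 with heat in cycling cells) and 5 lay between 1.38 and 2.23. Ordered by level, neighbours within the 3 and within the 5 had overlapping intervals, and no interval of the 3 overlapped one of the 5.

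**Figure D1:**
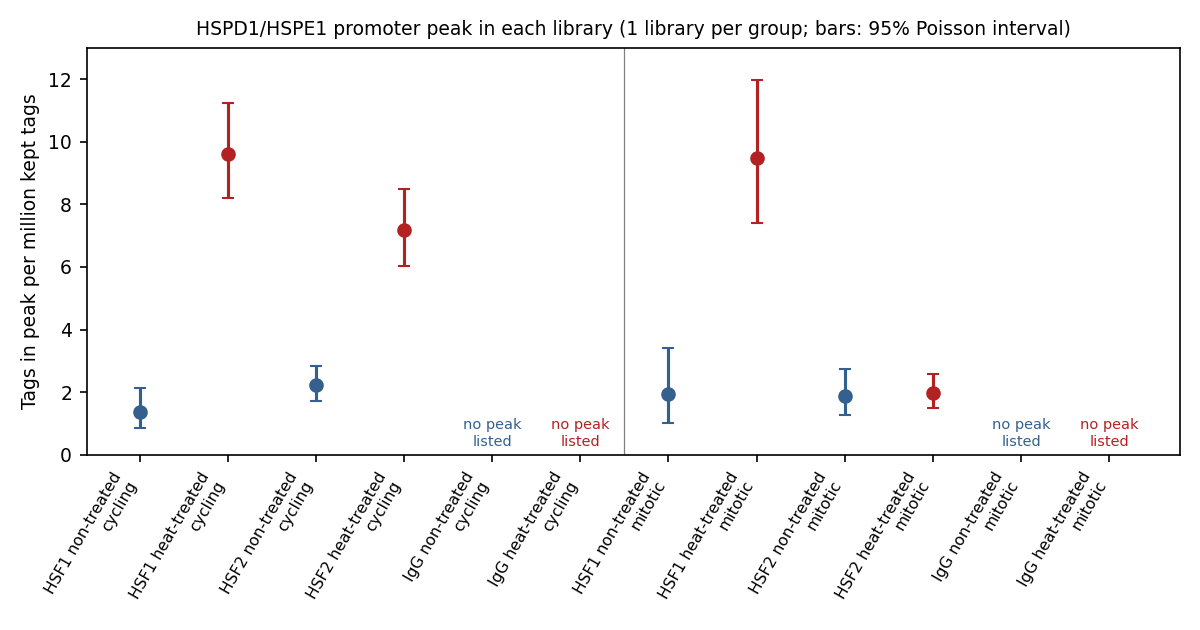
Level of the HSPD1/HSPE1 promoter peak (RPM) in each of the 12 libraries, non-treated in blue and heat-treated in red, with 95% Poisson intervals. The 3 high libraries lie between 7.19 and 9.62, the 5 others between 1.38 and 2.23, and no IgG library has a listed peak.

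None of the 4 IgG lists had a peak in the segment. This is not a level of 0, because a list holds only regions past the peak caller's threshold. The smallest listed peaks were 12 tags (0.813 RPM) in non-treated cycling IgG, 12 (0.824) in heat-treated cycling IgG and 13 (0.723) in heat-treated mitotic IgG, all below the 8 HSF levels. In non-treated mitotic IgG, with 2066373 kept tags, the smallest listed peak was 6 tags, or 2.90 RPM, above both HSF levels of that condition. All these smallest peaks lie elsewhere in the genome, so none of the 4 lists puts a limit on IgG signal at this promoter. The HSF over IgG ratios of the design could not be formed.

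The HSF peaks shared a core. Their summits lay within 174 bp, from 198364729 (HSF2, non-treated mitotic) to 198364903 (HSF1, non-treated mitotic), with a median at 198364816 on chromosome 2. Both outermost summits came from small peaks, of 28 and 12 tags, and the 4 heat-treated summits lay within 87 bp. The heat-treated cycling summits of HSF1 and HSF2 were at 198364820 and 198364801. All 8 peaks covered 391 bp in common, from 198364711 to 198365101, and together spanned 1292 bp. The rounded position of the divergent starts in the selection rule, 198364750, lies within that common segment. The separate RefSeq starts were not placed in hg19, so no distance from a summit to either gene's start is given. The heated peaks were 1027 to 1283 bp wide and the non-treated ones 611 to 1075 bp, and this width is part of each tag count.

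**Figure D2:**
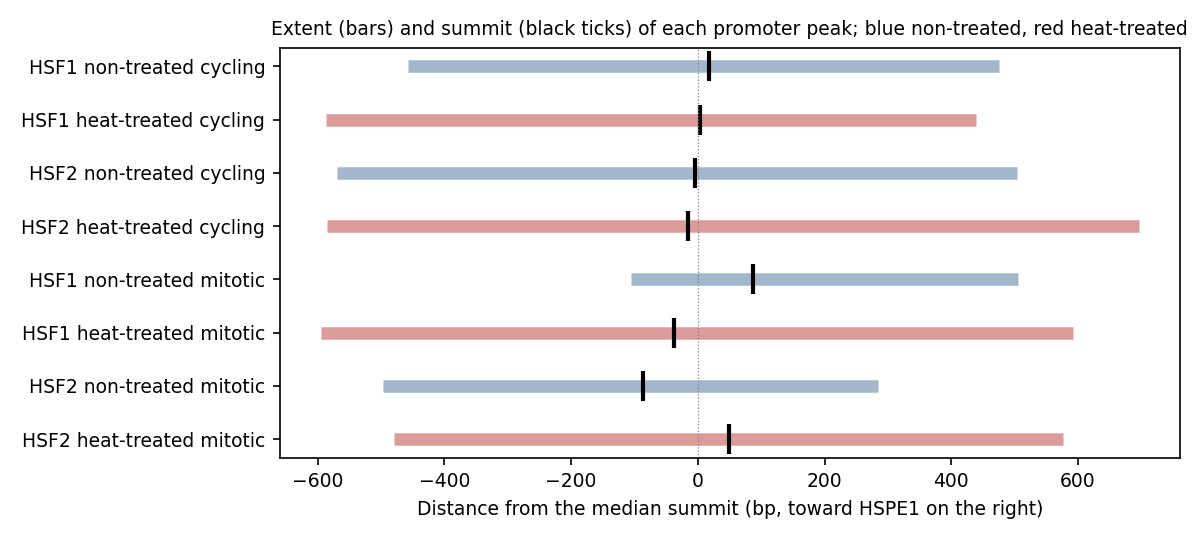
Extent (bars) and summit (black ticks) of the promoter peak in each HSF library, in bp from the median summit, with HSPE1 to the right; blue is non-treated and red heat-treated. The summits fall within 174 bp of one another and the narrowest bar is the 611 bp peak of HSF1 in non-treated mitotic cells.

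No other peak lay within 250 kb on either side of the segment in any of the 12 lists. Within 1 Mb there were 8 others, in 6 lists. Of these, the one with most tags was an HSF2 peak of heat-treated cycling cells (43 tags, 2.21 RPM, deposited fold 10.9) at 197663950 to 197664964, about 700 kb away, where the HSF1 list of the same cells had 20 tags (1.20 RPM). In RefSeq gene order COQ10B and SF3B1 follow on the HSPD1 side and MOB4 on the HSPE1 side. RefSeq also gives a protein-coding gene HSPE1-MOB4, which begins at the same base as HSPE1 and ends with MOB4.

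A peak in every HSF list was uncommon. Overlapping peaks of the 12 lists merged into 38864 regions with at least 1 HSF peak, and 108 of them (0.278%) had a peak in all 8 HSF lists. Most of those recurred in IgG as well, 62 in all 4 IgG lists. All told, 2 of the 108 (1.85%, or 0.00515% of the 38864 regions) had no IgG peak, and these were the HSPD1/HSPE1 promoter and the HSPA8 promoter on chromosome 11 at 122932364 to 122933595. The count rests on all deposited peaks, and some at the HSPD1/HSPE1 promoter were weak. The deposited fold over input was 5.82 for HSF1 in non-treated cycling cells and 3.52 in non-treated mitotic cells. The deposited false discovery rate was 9.55% for HSF1 and 17.65% for HSF2 in non-treated cycling cells, and at most 2.35% in the other 6. In the non-treated cycling HSF2 list a high rate did not go with a low fold. The fold was 17.8 at HSPD1/HSPE1, and at HSPA8 it was 20.2 with a rate of 28.57%.

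Within each list the promoter ranked near the top by the deposited fold, a ratio of tags to those expected from input. It was the third of 6447 HSF1 peaks in heat-treated cycling cells (fold 43.0), the third of 4315 HSF2 peaks (33.4) and the third of 4982 HSF1 peaks in heat-treated mitotic cells (15.1). In heat-treated mitotic HSF2 it was rank 16 of 8270 (9.51). Without heat it was rank 2 of 875 for cycling HSF2 (17.8), 28 of 4718 for cycling HSF1, 8 of 4534 for mitotic HSF1 and 14 of 19866 for mitotic HSF2 (5.99). By tags alone the rank was lower: 123 for HSF1 and 145 for HSF2 in heat-treated cycling cells, and 1337 for HSF1 and 323 for HSF2 in non-treated cycling cells. A fold of at least 10 was reached by the promoter in both heated cycling lists, where 4.42% of HSF1 and 3.62% of HSF2 peaks did so, in heated mitotic HSF1 (0.12%) and in non-treated cycling HSF2 (0.571%). It was not reached in heated mitotic HSF2 (0.121% of peaks did), non-treated mitotic HSF2 (0.0201%), non-treated cycling HSF1 (0.0212%) or non-treated mitotic HSF1 (0 peaks). Lists differ in length, so these ranks are not compared between conditions.

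The heat ratio asks how much more of each factor was recovered at the promoter after heat. For HSF1 in cycling cells the heated level was 6.95 times the non-treated one (4.35 to 11.7), and for HSF2 3.22 times (2.38 to 4.40). In mitotic cells it was 4.87 times for HSF1 (2.62 to 9.87) and 1.04 times for HSF2 (0.652 to 1.71). The mitotic HSF1 ratio was 2.50 when tags were also divided by peak width, and the mitotic HSF2 ratio turned to 0.774 by width and to 0.829 by the deposited fold per 1000000 kept tags. The deposited mitotic HSF2 fold itself, not divided by kept tags, was higher with heat (9.51) than without (5.99). Ratios with a shared library are not independent of each other.

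A minority of heated peaks had a non-treated counterpart. The promoter belonged to the 11.7% of heated HSF1 peaks and 6.47% of heated HSF2 peaks in cycling cells that overlapped a non-treated peak, and to the 32.1% and 21.9% in mitotic cells. Here and below, the ratio of a shared peak sets its level against the summed tags of all peaks it overlaps in the second list of the pair. Such sums can only lower a ratio, and the promoter had 1 peak in each list. The median peak found in both lists of a heat pair had a ratio near 1. A heated level of at least 2 times the non-treated one was seen at 8.91% of 752 shared HSF1 peaks and 13.6% of 279 shared HSF2 peaks in cycling cells, with median ratios of 1.04 and 1.00. In mitotic cells the shares were 6.81% of 1601 HSF1 peaks and 6.01% of 1815 HSF2 peaks, with medians of 0.954 and 0.905. The promoter's ratio was reached or passed by 7 of the 752 and by 5 of the 1601 HSF1 peaks, itself included. For HSF2 the numbers were 21 of the 279 and 683 of the 1815. Among shared peaks with a deposited fold of at least 10 with heat, the promoter was not unusual in cycling cells. Its ratio was reached there by 7 of 16 such HSF1 peaks (median 6.23) and 20 of 29 HSF2 peaks (3.77), the promoter included each time. In mitotic cells 3 HSF1 peaks qualified, and 2 reached the promoter's ratio, itself included. They are too few to place it, and its own ratio is their median (4.87). The other 2 ratios, 4.03 and 8.76, equal those at HSPA1B and HSPA1A, loci compared below. The mitotic HSF2 promoter peak had a fold below 10. Such peaks were selected in the heated lists, which favours a higher heat ratio.

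**Figure D3:**
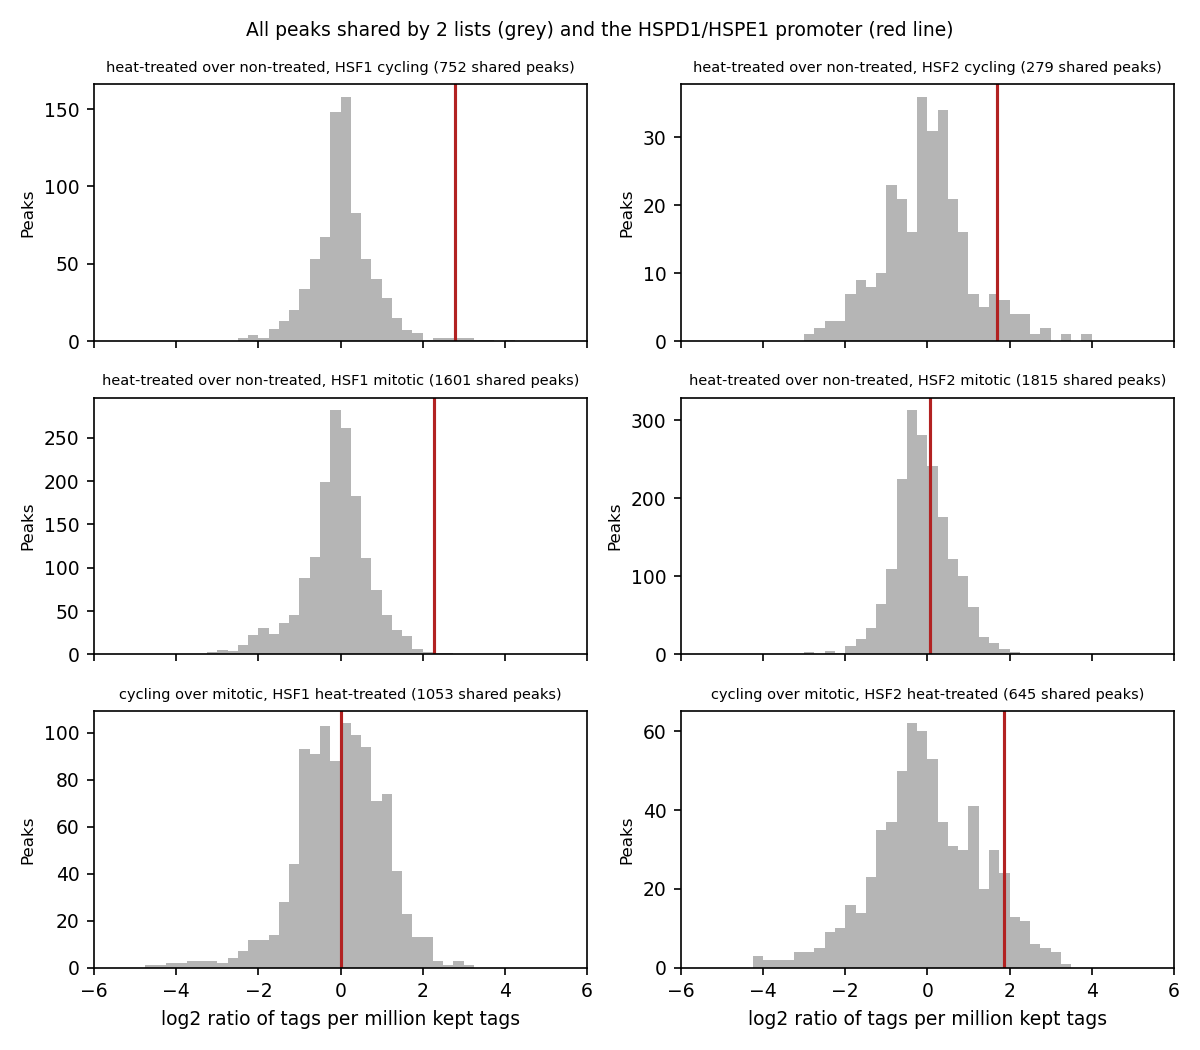
Histograms of the log2 ratio of RPM over all peaks shared by 2 lists, for 6 pairs of libraries, with the HSPD1/HSPE1 promoter as a red line. The promoter lies in the upper tail for HSF1 with heat in both cell states and for HSF2 in cycling cells (ratio 3.22), and near the middle for HSF2 with heat in mitotic cells (1.04) and for HSF1 between cell states (1.01).

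The response to heat differed between the factors and, for HSF2, between cell states, as set out by ratios of ratios that were chosen after the values were seen. The heat ratio of HSF1 was 4.66 times that of HSF2 in mitotic cells (2.06 to 10.96) and 2.16 times in cycling cells (1.21 to 3.95). The heat ratio of HSF2 in cycling cells was 3.08 times that in mitotic cells (1.72 to 5.46). For HSF1 the same quotient was 1.43 (0.600 to 3.26), an interval that includes 1 and does not show the ratios to be alike. With tags also divided by peak width it was 2.52 (1.06 to 5.76). Whether these differences go beyond the spread between repeat libraries was not tested.

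Between cell states, heat-treated HSF1 stood at almost the same level in cycling and mitotic cells, with a ratio of 1.01 (0.762 to 1.36). Heat-treated HSF2 in cycling cells was 3.63 times its mitotic level (2.65 to 5.05). A cycling level of at least 2 times the mitotic one was seen at 16.3% of 1053 shared HSF1 peaks and 24.2% of 645 shared HSF2 peaks. Shared peaks were 16.3% of the cycling HSF1 list and 14.9% of the cycling HSF2 list. Among the 157 shared HSF1 peaks with a deposited fold of at least 10 in cycling cells, the median ratio was 1.96, and 11, the promoter included, had a ratio as low. Those peaks were selected in the cycling list, which favours a higher cycling level, and the promoter is subject to the same selection. Among the 81 such HSF2 peaks the median was 3.69, close to the promoter's ratio. The cycling over mitotic ratio of HSF2 was 3.58 times that of HSF1 (2.31 to 5.56).

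The libraries of the cell states were not made alike. Per the file headers, alignment names differ between all cycling and all mitotic HSF lists, so cell state and alignment cannot be told apart. Both mitotic HSF1 lists kept 1 tag per position and the other 6 HSF lists kept 2. Total and kept tags differed by at most 1 tag in cycling HSF lists, while 66.4% to 90.4% of total tags were kept in mitotic ones. Scaled to total tags, the HSF1 ratio of cycling to mitotic cells was 1.43.

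Without heat the cell states could not be distinguished at this depth. The cycling level was 0.711 times the mitotic one for HSF1 (0.331 to 1.60) and 1.18 times for HSF2 (0.745 to 1.91), pairs added after the values were seen. A ratio of at least 2 was seen at 13.1% of 886 shared HSF1 peaks and 8.16% of 392 shared HSF2 peaks, which were 18.8% and 44.8% of the cycling lists.

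HSF1 was above HSF2 in both heated conditions, by far more in mitotic than in cycling cells. In heated cycling cells HSF1 was 1.34 times HSF2 (1.06 to 1.69), where the median over 2101 shared peaks was 1.16 and 6.85% reached 2. In non-treated cycling cells it was 0.620 times HSF2 (0.356 to 1.04), where the median over 407 was 0.775, and 2.46% reached 2. In non-treated mitotic cells the ratio was 1.03 (0.476 to 2.09), where 1.37% of 1828 reached 2. In heated mitotic cells HSF1 was 4.79 times HSF2 (3.32 to 6.93). Of 1444 peaks shared there, 8.52% reached 2, the median was 0.513, and 4 had a ratio as high as the promoter, itself included. The HSF1 library there kept 1 tag per position and the HSF2 library 2, and the part of this setting in the ratio was not tested. Divided by the median of all 1444 shared peaks the promoter's ratio was 9.33. Shared peaks made up 32.6%, 8.63%, 40.3% and 29% of the HSF1 lists of these 4 conditions, in the order given. Antibodies can differ in efficiency, so a ratio of 1 between factors does not mark equal binding.

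**Figure D4:**
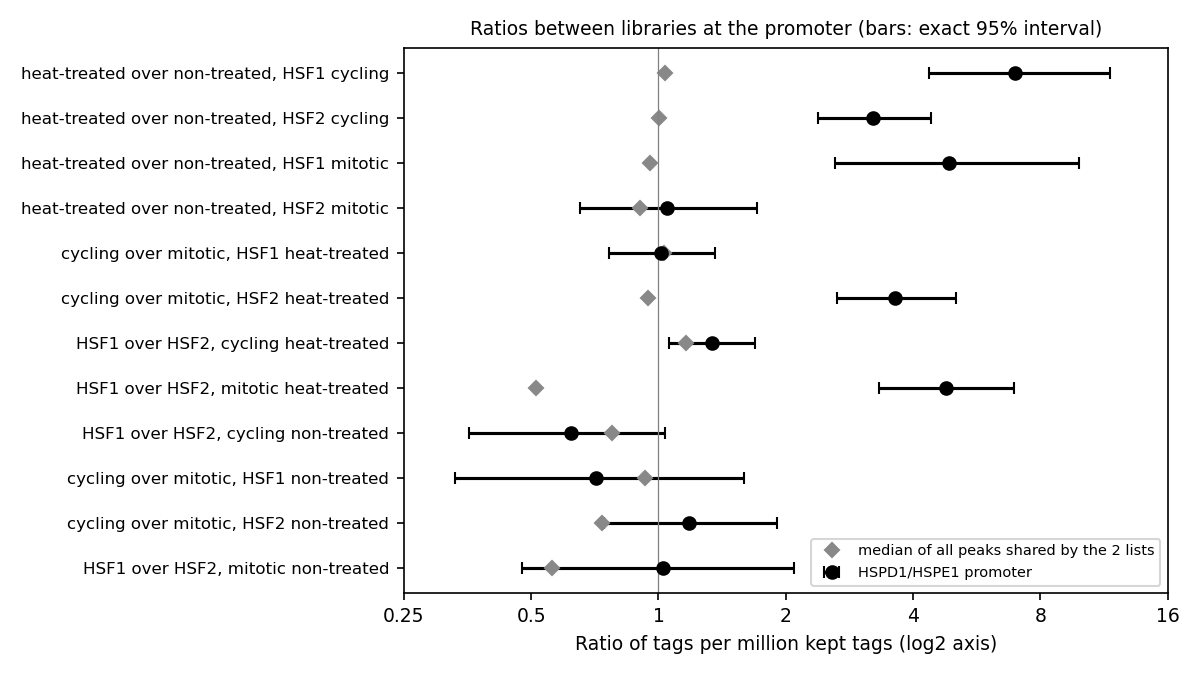
Ratio of RPM between pairs of libraries at the HSPD1/HSPE1 promoter (black, exact 95% interval) and the median over all peaks shared by the same 2 lists (grey), on a log2 axis. The ratios that stand clear of 1 are heat over non-treated for HSF1 in both cell states and for HSF2 in cycling cells, cycling over mitotic for heated HSF2 (3.63), and HSF1 over HSF2 with heat (1.34 and 4.79).

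Other chaperone promoters were set beside it. HSPA8 encodes the constitutive HSP70 family member of the cytosol, HSPH1 encodes HSP110, a nucleotide exchange factor of HSP70, and HSPA1A and HSPA1B encode near-identical heat-inducible HSP70 proteins whose reads can be split between the copies. In heat-treated cycling cells HSF1 levels were 7.77 RPM at HSPA8 (6.49 to 9.22), 6.51 at HSPH1 (5.35 to 7.86), 32.1 at HSPA1A and 35.9 at HSPA1B, against 9.62 at HSPD1/HSPE1. The HSPA1A and HSPA1B peaks were 3856 and 3566 bp wide, and heat-treated IgG had a peak at both in cycling cells (4.81 and 5.42 RPM) and mitotic cells (4.62 and 4.84). HSPH1 had a peak in the 4 heat-treated HSF lists and in no non-treated one.

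Against HSPA8, the contrast between the factors in heated mitotic cells was larger at HSPD1/HSPE1. HSF1 over HSF2 there was 1.47 at HSPA8 (0.895 to 2.33), and the ratio at HSPD1/HSPE1 was 3.27 times as large (1.78 to 6.06), or 2.05 times with tags also divided by peak width (1.12 to 3.80). In the same cells the ratio was 4.26 at HSPH1, 3.11 at HSPA1A and 3.07 at HSPA1B. A high ratio was thus not particular to HSPD1/HSPE1. The quotients of HSPD1/HSPE1 to these were 1.125 (0.571 to 2.21), 1.54 (0.986 to 2.40) and 1.56 (1.02 to 2.40). With tags also divided by peak width the ratios were 4.68, 4.19 and 4.46, against 4.26 at HSPD1/HSPE1. Heated mitotic HSF1 at HSPA8 was 3.52 RPM (2.30 to 5.16) and non-treated 2.43 (1.36 to 4.01), a ratio of 1.45 (0.738 to 2.94).

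Other differences from HSPA8 in HSF1 depended on peak width. The mitotic heat ratio at HSPD1/HSPE1 was 3.37 times that at HSPA8 (1.27 to 8.96), but 1.70 times per width (0.639 to 4.52). The mitotic HSF1 peaks of HSPD1/HSPE1 were 611 bp without heat and 1188 bp with it, and those of HSPA8 816 and 800 bp. The cycling over mitotic ratio of heated HSF1 was 2.21 at HSPA8 (1.44 to 3.50), where the peaks were 1232 and 800 bp wide. The ratio at HSPD1/HSPE1 was 0.460 times that (0.266 to 0.781), but 0.819 times per width (0.474 to 1.39). In cycling cells the heat ratio of HSF1 was 8.02 at HSPA8 (4.61 to 15.1), and the quotient of HSPD1/HSPE1 to it was 0.867 (0.389 to 1.89), or 2.01 per width (0.901 to 4.37).

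For HSF2 no ratio between HSF2 libraries at HSPD1/HSPE1 was separated from its HSPA8 counterpart. The quotient of the heat ratios was 1.504 in cycling cells (0.973 to 2.33) and 1.12 in mitotic cells (0.587 to 2.14). The quotient of the cycling over mitotic ratios was 1.52 with heat (0.963 to 2.39) and 1.13 without (0.601 to 2.13).

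At HSPA1A and HSPA1B the cycling heat ratios were 17.2 (11.7 to 26.3) and 11.04 (8.20 to 15.2) for HSF1 and 13.9 (10.3 to 19.2) and 7.72 (6.05 to 9.97) for HSF2. These peaks widened with heat, for HSF1 from 884 to 3856 bp at HSPA1A and from 1164 to 3566 bp at HSPA1B. The HSF1 heat ratio at HSPD1/HSPE1 was 0.405 times that at HSPA1A (0.213 to 0.784), and the quotient turned to 1.60 per width (0.842 to 3.11). In all, 40 quotients against the 4 loci were formed, with intervals not adjusted for their number. An interval without 1 was found for 11 of them, and per width for 1, the contrast between the factors against HSPA8.

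**Figure D5:**
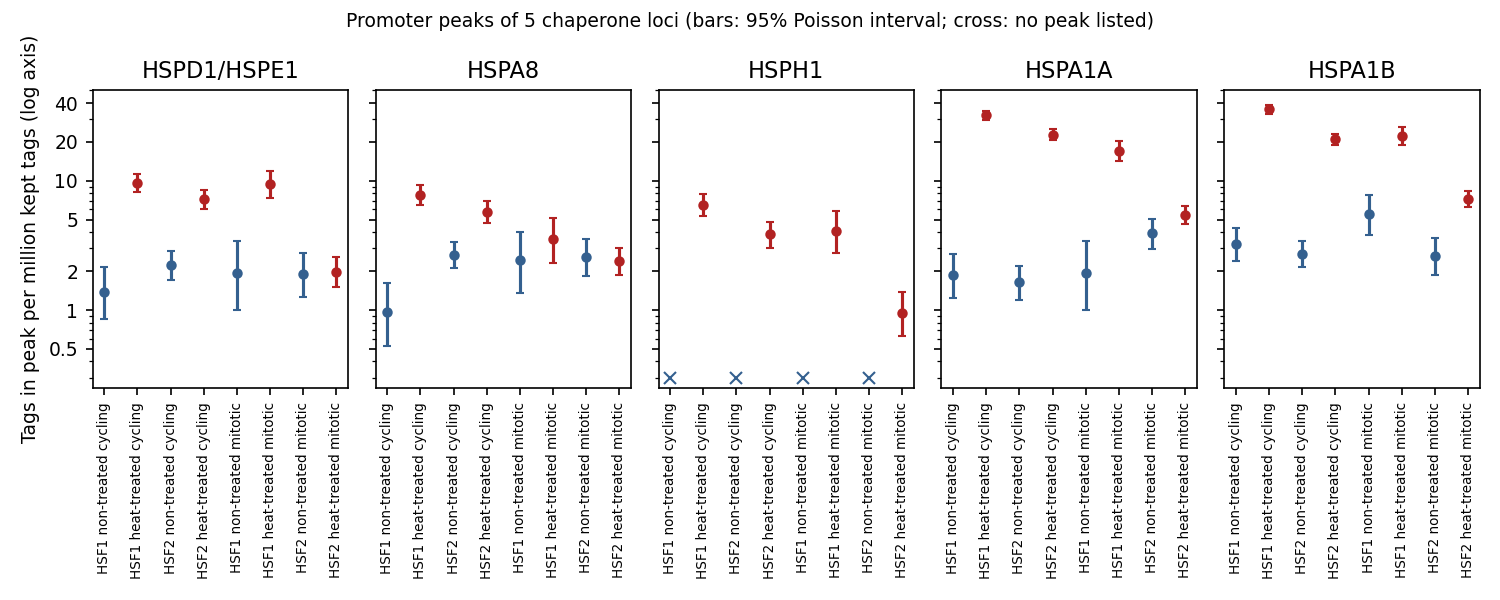
Level of the promoter peak (RPM, log axis) at 5 chaperone loci in the 8 HSF libraries, non-treated in blue and heat-treated in red, with 95% Poisson intervals; a cross marks a list with no peak. Heated mitotic HSF1 is at 9.48 at HSPD1/HSPE1 and at 3.52 at HSPA8, while mitotic HSF2 lies between 1.89 and 2.57 at both loci with and without heat.

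Regions with the most similar pattern were sought among 2178 others with a peak in at least 3 HSF lists, by the Euclidean distance of log2(RPM + 0.5) over the 8 HSF libraries, a missing peak counting as 0. RPM here sums the tags of all of a library's peaks in a merged region. The nearest lay on chromosome 11 at 286877 to 288376 (distance 1.42), with 13.2 RPM of HSF1 and 9.29 of HSF2 in heated cycling cells and 4.06 and 2.01 in heated mitotic cells. HSPA8 was next (1.52). The others of the nearest 5 were chr4:9216326-9221468 (2.55), chr21:9662469-9669402 (2.61) and chr6:160209805-160211806 (2.67). All 3 are wider than the 1292 bp of the HSPD1/HSPE1 region, the first 2 by far, and width is part of their sums. Unlike HSPD1/HSPE1 and HSPA8, the other 4 of these 5 had IgG peaks. The chromosome 4 region had 4.54 and 4.60 RPM in non-treated and heated cycling IgG, and the chromosome 21 region 4.00 and 4.32 RPM there and 7.29 in heated mitotic IgG. In heated mitotic IgG the chromosome 11 region at 286877 had 0.779 RPM and the chromosome 6 region 1.06. HSPA1A ranked 20, HSPA1B 39 and HSPH1 171. By Pearson correlation in place of distance, 0 of these 5 regions stayed among the nearest 5, so the set depends on the measure.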

How the data were processed

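Peak lists of 12 antibody libraries were used. The submitters' processing notes name Bowtie, hg19 and MACS 1.4. Per the file headers, each library was called on its own against input by MACS 1.4.1 with a p cutoff of 1e-05 and a fragment size of 200 bp, and 5 lists carry bwa in their alignment names. The tags column holds raw counts per peak, per the file headers. The deposited fold is a ratio to input, the deposited false discovery rate a percent, and the deposited score, minus 10 times log10 of the p-value, served only to rank peaks. Kept tags, also from the headers, ranged from 2066373 to 28676943 (6164898 to 28676943 for HSF). Tags were scaled to 1000000 kept tags here. The summit is the peak start plus the deposited offset minus 1.

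Ratios have exact conditional binomial intervals, levels exact Poisson ones and shares Wilson ones, at 95%. Comparison peaks overlapped the heated cycling HSF1 peak of hand-set hg19 windows placed from general knowledge. Named regions were the members, these loci and the 5 nearest by distance. The steps were tested on simulated data. Promoter sequences came from RefSeq (GRCh38.p14), and both genes matched. The members and lists were chosen with earlier results of these data known. Alternatives were total tags, peak width, the fold per 1000000 kept tags, other minimums, pseudocounts and motifs, and, added after the data were seen, the median of shared peaks and peak width for quotients of ratios. Peak lists hold no expression, so the cell line was not checked. Intervals used scipy 1.17.1, tables pandas 2.3.3 and numpy 2.4.6, and plots matplotlib 3.10.9, under Python 3.11.15.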

Additional observations from a re-analysis of the deposited data

How the results depend on the processing

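No paired analysis was possible because each group holds 1 library. Of 120 alternatives, 86 were counted as leaving a result as it was and 23 as moving it. Another 4 brought 1 into an interval and 1 took 1 out. The other 6 turned a quotient of ratios whose interval lay clear of 1. Among the 86, a ratio stayed within its interval, a count within 1.5 times and the summit spread within the standard deviation of the summits. A quotient of ratios was among them if its interval included 1 both times or lay on the same side of 1 both times. Such a quotient could cross 1: the cycling HSF1 heat quotient went from 0.867 to 2.01 against HSPA8 and from 0.630 to 1.75 against HSPA1B. No ratio between 2 libraries with an interval clear of 1 turned. A fold of at least 5 left 7 of the 8 lists with a peak and a false discovery rate of at most 5% left 6. Of the 12 ratios, each of the 4 other scalings moved 1: peak width took heated over non-treated mitotic HSF1 to 2.50, total tags took heated cycling over mitotic HSF1 to 1.43, the fold per 1000000 kept tags took heated cycling over mitotic HSF2 to 5.10, and the median of shared peaks took heated mitotic HSF1 over HSF2 to 9.33. The deposited folds of heated HSF2, not divided by kept tags, were 33.4 in cycling and 9.51 in mitotic cells. The cause of these shifts was not tested. Ratios whose interval includes 1 could turn. Mitotic HSF2 with heat went to 0.774 by width and to 0.829 by the fold per 1000000 kept tags. Without heat, cycling over mitotic HSF1 went to 1.07 by total tags and that of HSF2 to 0.858 by width. Non-treated mitotic HSF1 over HSF2 went to 0.855 by total tags.

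The standing in each list depended on the measure. By tags the promoter was in the top 28.3% and 36.9% of non-treated cycling HSF1 and HSF2, 1.91% and 3.36% of the heated ones, 33.0% and 8.17% of non-treated mitotic HSF1 and HSF2 and 5.16% and 9.90% of the heated ones. By fold these were 0.593%, 0.229%, 0.0465%, 0.0695%, 0.176%, 0.0705%, 0.0602% and 0.193%, and by score 7.08%, 1.94%, 0.0465%, 0.232%, 5.38%, 1.71%, 0.0201% and 1.45%. Of the 5 nearest regions, 4 stayed with a pseudocount of 0.1, 3 with 1 and 0 by Pearson correlation. The summit spread was 87 bp in heated libraries and 136 bp without non-treated mitotic HSF1. The planned ratios to IgG gave no value. The 12 tags of non-treated mitotic HSF1 limit every ratio that uses them.

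Dividing tags by peak width, chosen after the data were seen, took the HSF1 heat ratio of cycling over mitotic cells from 1.43 to 2.52. Against HSPA1A it turned the quotients of the cycling heat ratios to 1.60 (HSF1) and 1.04 (HSF2), of cycling over mitotic heated HSF1 to 1.13 and of cycling over mitotic non-treated HSF2 to 0.982. Against HSPA1B it turned that of cycling over mitotic heated HSF1 to 1.19 and of heated mitotic HSF1 over HSF2 to 0.956. The peaks at both loci widened with heat.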

Other observations

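The 4-unit heat shock array of the HSPD1 window was shared with few other promoters. Of the 12 RefSeq windows that held one, 5 belong to protein-coding genes: HSPD1, CHORDC1, a co-chaperone gene of HSP90, COMMD1, PAPPA2 and TMEM95. The other 7 belong to long noncoding RNA genes. The search was added after the HSPD1 sequence had been seen, and none of the other windows was placed on the peak lists, which are in another build.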
